A study of Homo sapiens with 8 samples.

Results

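The genes described here encode the NODAL ligand, its relative GDF3, the coreceptor TDGF1, the activin receptors ACVR2B and ACVR1B, the secreted antagonists LEFTY1, LEFTY2 and CER1, and the transducers SMAD2 and SMAD3. Each gene was taken as the transcripts that carry its name in both the combined count table and the combined transcript assembly. All 10 genes were found among the 29838 genes and named loci of the table. They are represented by 34 of 96614 transcripts. Another 3 transcripts, listed under ACVR2B or SMAD3 by an intronic position only, were left out of the gene counts.

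The data are PacBio long-read libraries of polyadenylated RNA from H1, a line of human embryonic stem cells. There are 4 groups of 2 repeats each, namely undifferentiated cells (hPSC), Ectoderm, Endoderm and Mesoderm. The hPSC were grown in mTeSR1 on Matrigel, and the layers were made from the same line and collected after 5 days, so every group is 1 genetic background. Endoderm cultures received RPMI with WNT3A, Activin A at 100 ng/ml and 0.5% FBS. Mesoderm cultures received VEGF at 100 ng/ml, BMP4 at 100 ng/ml, bFGF at 10 ng/ml and 0.5% FBS, with Activin A at 100 ng/ml for the first 24 h only. Ectoderm cultures received 15% KOSR with A83-01, PNU-74654 and Dorsomorphin at 2 µM each. Nothing in the labels says that repeats are separate cultures, so p-values measure only the spread between these samples, which may be technical.

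NODAL is a secreted ligand of the TGF-beta family. Together with an EGF-CFC coreceptor such as TDGF1 (also called Cripto) it engages type II and type I activin receptors, which phosphorylate SMAD2 and SMAD3. The SMADs then act with SMAD4 and the DNA-binding partner FOXH1 on targets that include NODAL itself and its inhibitors LEFTY1 and LEFTY2, a loop of activation and feedback inhibition known from the early embryo. Activin A signals through the same receptors and SMADs without needing the coreceptor, and A83-01 inhibits the kinase of the activin, nodal and TGF-beta type I receptors. In human pluripotent cells the pathway maintains NANOG, and strong signalling induces definitive endoderm.

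The library totals ranged from 503840 to 1180888 counts, with the ectoderm libraries the deepest. A count of 0 in 1 library allows 3 counts, or from 2.54 to 5.95 CPM (counts scaled to a common library total). The labels were checked against marker genes. All 6 other endoderm markers tested beside CER1 were higher in endoderm than in hPSC (13.4% of all genes were higher). In ectoderm 5 of 6 tested neural ectoderm markers were higher (23.8%). These higher markers passed the filter on low counts only with the libraries of their own layer. FOXA2, LHX2 and SOX1 were not tested, so both counts are a description. All 8 pluripotency markers were tested, and 8 fell in mesoderm and 6 in each other layer. Of all genes, 18.2% were lower in mesoderm, 24.8% in ectoderm and 13.8% in endoderm. The mesoderm libraries held 1 and 0 reads of TBXT, none of MIXL1, and 263 and 274 reads of HAND1. Of 4 tested mesoderm markers, 2 rose and 1 fell there (16.9% and 18.2% of all genes). TBXT, MESP1, FOXF1, PDGFRA, TBX6 and MSX1 were not tested. Of the 2 that rose, HAND1 passed the filter on low counts only with the mesoderm libraries, so the count is a description. All 9 tested markers of amnion and trophoblast were higher there than in hPSC (16.9% of all genes). All of them but GATA3 passed the filter only with the mesoderm libraries, so this count is a description too. The summed level of the amnion and trophoblast markers was 6874 and 7566 CPM against 17.6 to 88.8 CPM in the other 6 libraries. GABRP alone had 2269 and 2355 reads in the mesoderm libraries, the most of any of these markers, and ERVW-1 was not tested. The early mesoderm markers TBXT and MIXL1 were thus at or near 0 in the cultures labelled mesoderm, and the part of cells of another type in the results below was not tested. The hPSC repeats differed from each other more than the other pairs, at 9.70 against 1.77 to 2.57 for the chi-square statistic divided by its degrees of freedom. SOX2, a pluripotency factor, had 71 reads in hPSC repeat 1 and 5 in repeat 2.

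For NODAL, GDF3 and CER1 the deposited transcript starts at the base that RefSeq gives as the gene's start. These 3 genes rose in endoderm, as described below, and their 250 bases upstream of that start are shown. The sequences are from RefSeq on GRCh38.p14, all on the minus strand, at chr10:70441682-70441931 for NODAL, chr12:7695776-7696025 for GDF3 and chr9:14722734-14722983 for CER1. Capitals mark matches on either strand to CAGAC, the core that SMAD3 and SMAD4 bind, or to TGTNNATT, a FOXH1-type motif.
NODAL: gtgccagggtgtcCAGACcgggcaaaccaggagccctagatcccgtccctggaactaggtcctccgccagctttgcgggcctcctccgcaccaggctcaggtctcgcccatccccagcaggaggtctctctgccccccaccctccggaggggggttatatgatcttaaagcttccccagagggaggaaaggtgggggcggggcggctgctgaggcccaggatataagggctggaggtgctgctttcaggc
GDF3: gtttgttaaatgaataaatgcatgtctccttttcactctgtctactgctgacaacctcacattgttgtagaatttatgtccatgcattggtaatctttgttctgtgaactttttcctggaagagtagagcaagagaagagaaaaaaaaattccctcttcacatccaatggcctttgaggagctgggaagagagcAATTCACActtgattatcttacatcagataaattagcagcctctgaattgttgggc
CER1: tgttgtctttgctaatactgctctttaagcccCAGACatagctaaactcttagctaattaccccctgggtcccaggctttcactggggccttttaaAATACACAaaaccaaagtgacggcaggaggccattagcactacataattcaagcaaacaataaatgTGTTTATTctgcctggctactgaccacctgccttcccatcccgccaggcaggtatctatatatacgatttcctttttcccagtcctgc
CER1 holds 1 CAGAC, whose first base lies 218 bases before the start, and 2 matches to TGTNNATT that begin 154 and 88 bases before it. NODAL holds 1 CAGAC and GDF3 holds 1 match to TGTNNATT. No match to TAATCC, a GSC and OTX2 type motif, or to TCACACC, a T-box type motif, lies in these windows. The motifs do not overlap one another here. Among 34943 RefSeq promoter windows of the same length, CAGAC occurs in 38.0%, TGTNNATT in 9.91%, TAATCC in 5.62% and TCACACC in 2.76%, 3.63% hold both CAGAC and TGTNNATT, and 1.01% hold TGTNNATT at least 2 times. A match describes the letters only. Promoters were matched for 7 of the 10 genes, and LEFTY1, LEFTY2 and TDGF1 had no entry in the RefSeq set used. SMAD2 also rose in endoderm, and a deposited transcript starts at 1 of its RefSeq starts, but its windows hold none of these motifs. Among genes that did not rise there, ACVR1B holds 1 CAGAC in 1 window. Of the SMAD3 windows, 1 holds 1 match to TGTNNATT and others hold CAGAC 1 and 3 times. ACVR2B holds none.

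**Figure D1:**
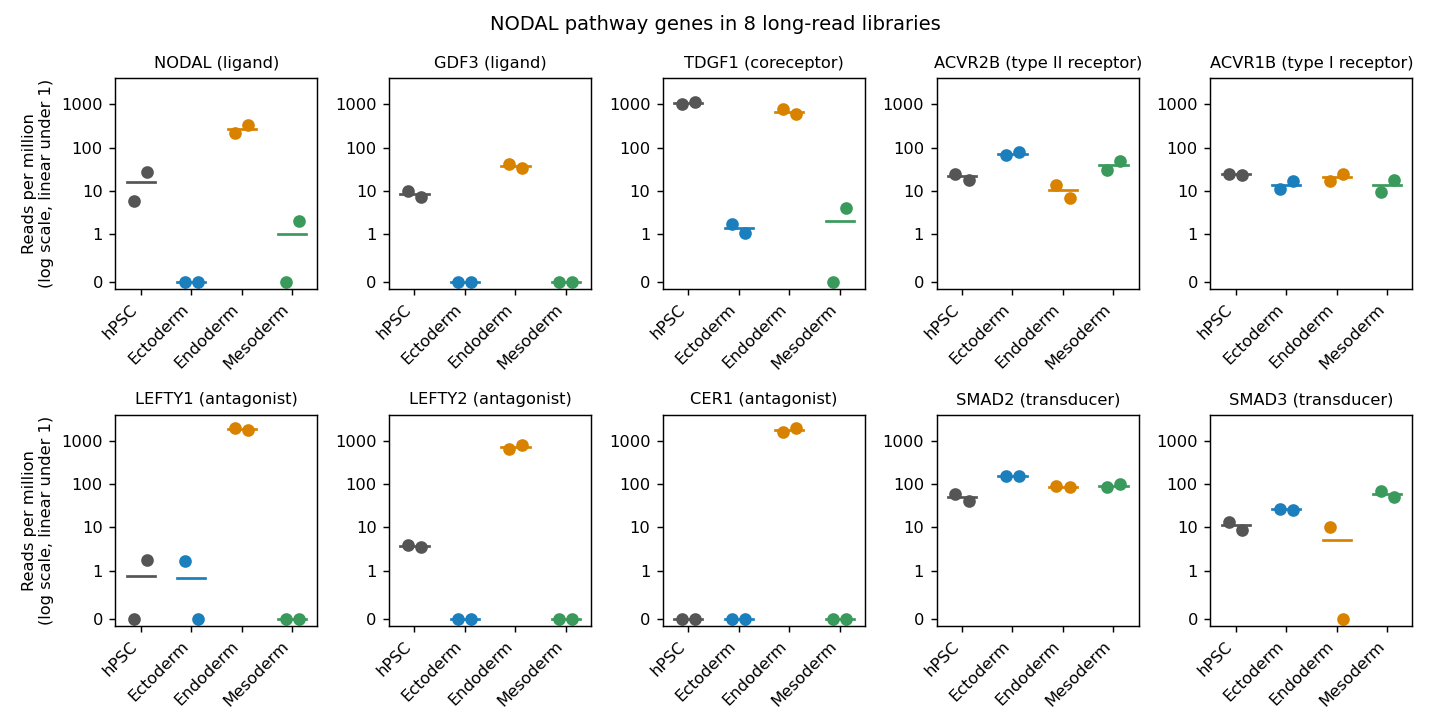
CPM (log scale, linear under 1) of the 10 genes in each of the 8 libraries. Points are libraries and bars are group means. NODAL, GDF3, LEFTY1, LEFTY2 and CER1 are highest in both endoderm libraries, and TDGF1 is near 0 in ectoderm and mesoderm.

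The ligand NODAL was read mainly in endoderm. It had 3 and 15 reads in the hPSC repeats, 130 and 194 in the endoderm repeats, 0 and 0 in those of ectoderm and 0 and 1 in those of mesoderm. The lowest endoderm library lay far above the highest hPSC library, and ectoderm and mesoderm lay below both hPSC libraries. The endoderm mean was 276 ± 77.0 CPM (SD, n = 2) against 16.2 ± 14.8 CPM in hPSC, a ratio of 16.6 for the pooled reads. Its fitted log2 fold change was 4.36 ± 0.52 (SE), with adjusted p = 3.13e-05 in edgeR's quasi-likelihood test with Benjamini-Hochberg adjustment over 10843 genes, which is the test behind every adjusted p for a gene given here. Leaving out 1 library moved that log2 value between 3.54 (without hPSC repeat 1) and 6.04 (without hPSC repeat 2). NODAL fell in ectoderm, at least 11.9-fold lower against a floor of 3 counts over the group (adjusted p = 0.000638). It also fell in mesoderm, where 1 read against 18 gives a ratio of 17.2 with a counting interval of 2.72 to 718 (adjusted p = 0.0133). The call in mesoderm was lost without hPSC repeat 2, which holds most hPSC reads (adjusted p = 0.207), and without either mesoderm repeat (0.123 and 0.0536). In bulk RNA, fewer cells of a type and less RNA per cell cannot be told apart, here and in every result below.

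The NODAL transcript spans chr10:70431936-70441681 on the minus strand and has 3 exons with the introns of the reference transcript. A transcript of ENSG00000280401 on the opposite strand (chr10:70429889-70436576) shares 1851 bases with NODAL exons. It had 1 and 4 reads in the hPSC repeats, 35 and 15 in the endoderm repeats, 6 and 3 in those of ectoderm and 2 and 0 in those of mesoderm. Whether counting used strand is not given in the sources used here, so reads of these 2 genes cannot be told apart with certainty. In the assembly that the authors built from endoderm alone, NODAL was given 158 and 205 reads in place of 130 and 194. With all reads of the opposite-strand gene counted for NODAL, its log2 change in endoderm was 4.22 (adjusted p = 1.65e-05), in ectoderm -2.60 (0.00521) and in mesoderm -3.06 (0.0127).

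GDF3, a ligand of the same family that also acts through TDGF1, had the same order of groups at lower counts. It had 5 and 4 reads in the hPSC repeats, 25 and 20 in the endoderm repeats, 0 and 0 in those of ectoderm and 0 and 0 in those of mesoderm. No endoderm library overlapped hPSC, and no ectoderm or mesoderm library held a read. The endoderm level of 38.4 ± 6.06 CPM was 4.61 times the hPSC level in pooled reads, with a log2 fold change of 2.52 ± 0.50 (adjusted p = 0.00224). GDF3 was at least 5.96-fold lower in ectoderm (adjusted p = 0.00140) and at least 2.87-fold lower in mesoderm (adjusted p = 0.0108). Leaving out endoderm repeat 1 ended the call in endoderm (adjusted p = 0.0543), and leaving out either mesoderm repeat ended that in mesoderm (0.0725 and 0.0737).

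TDGF1, the coreceptor, stayed readable in endoderm and nearly vanished from the other layers. It had 524 and 626 reads in the hPSC repeats, 452 and 351 in the endoderm repeats, 2 and 1 in those of ectoderm and 0 and 2 in those of mesoderm. Both endoderm libraries lay below both hPSC libraries on the CPM scale, at 772 and 599 against 1009 and 1114 CPM, and that difference did not pass the test (log2 fold change -0.32 ± 0.32, adjusted p = 0.503). The fall in ectoderm was 761-fold in pooled reads, with a counting interval of 260 to 3698 (adjusted p = 3.62e-08), and it had the smallest p of all genes in that comparison. In mesoderm it was 550-fold, with an interval of 152 to 4550 (adjusted p = 5.69e-08). Processed copies of TDGF1 exist elsewhere in the genome, and how reads were assigned among near-identical copies is not given in the sources used here. TDGF1 has 1 transcript in the table, of 6 exons and 2016 nt, at chr3:46577728-46582457 on the plus strand.

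The type II receptor gene ACVR2B was highest in ectoderm. It had 13 and 10 reads in the hPSC repeats, 8 and 4 in the endoderm repeats, 79 and 75 in those of ectoderm and 16 and 24 in those of mesoderm. On the CPM scale the ectoderm repeats stood at 66.9 and 77.5, those of mesoderm at 30.1 and 47.6, those of hPSC at 25.0 and 17.8 and those of endoderm at 13.7 and 6.82. Both ectoderm libraries lay above all others, and both endoderm libraries lay below all others. ACVR2B rose in ectoderm with a log2 fold change of 1.33 ± 0.38 (adjusted p = 0.00888), and it was lower in endoderm than in ectoderm (-2.04 ± 0.43, adjusted p = 0.000762) and than in mesoderm (-1.34 ± 0.48, adjusted p = 0.0317). Its changes in endoderm and in mesoderm against hPSC did not pass (adjusted p = 0.344 and 0.266).

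Transcript length moved with this result. Weighted by reads, the transcripts were 4406 and 4650 nt long on average in the ectoderm repeats and 3765 and 3840 nt in the mesoderm repeats. They were 3298 and 3114 nt in the hPSC repeats and 3073 and 2975 nt in the endoderm repeats, and ACVR2B transcripts reach 14308 nt. With the trend on transcript length removed from all genes, the change of ACVR2B in ectoderm was 0.26 ± 0.37 (adjusted p = 0.609), and its differences between layers did not pass either (adjusted p = 0.167 for endoderm against ectoderm and 0.291 for endoderm against mesoderm). The latter was lost in 7 of 17 alternative analyses, among them those without endoderm repeat 2 (0.217) and mesoderm repeat 2 (0.211). DESeq2 also left the rise in ectoderm uncalled (adjusted p = 0.0713).

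Most ACVR2B reads were assigned to transcripts without the whole reference coding region. The transcript that matches the reference ENST00000352511.5, of 11 exons and 11707 nt, took 6 of 23 reads in hPSC (26.1%, exact 95% interval 10.2 to 48.4), 34 of 154 in ectoderm (22.1%, 15.8 to 29.5), 1 of 12 in endoderm (8.33%, 0.211 to 38.5) and 9 of 40 in mesoderm (22.5%, 10.8 to 38.5). These intervals overlap, so no difference in the share was detectable at this depth. The most frequent other transcript in ectoderm starts within the first intron, runs on into the second exon and took 25 and 22 reads there, against 1 and 4 in hPSC. It was the only ACVR2B transcript with enough reads to be tested (log2 fold change 1.97 ± 0.63 in ectoderm, adjusted p = 0.0176 over 12440 transcripts, of which 45.9% were called). It passed the filter on low counts only with the ectoderm libraries, so this value is a description. The transcript is 14308 nt long, and the value was computed without removal of the length trend. Transcripts of ACVR2B-AS1 on the opposite strand share 164 bases with ACVR2B exons and had from 1 to 6 reads in a library.

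The type I receptor gene ACVR1B (also called ALK4) had few reads in every group. It had 13 and 13 reads in the hPSC repeats, 10 and 14 in the endoderm repeats, 13 and 16 in those of ectoderm and 5 and 9 in those of mesoderm. On the CPM scale the group means ran from 13.6 ± 5.97 in mesoderm and 13.8 ± 3.91 in ectoderm to 20.5 ± 4.81 in endoderm and 24.1 ± 1.35 in hPSC, and only the hPSC pair lay above both ectoderm and mesoderm pairs. Its fall in ectoderm passed the test (log2 fold change -1.24 ± 0.45, adjusted p = 0.0316), but not in 11 of 17 alternative analyses, with library totals as the only scaling among them (-0.81 ± 0.44, adjusted p = 0.142). Endoderm exceeded ectoderm by 1.34 ± 0.46 (adjusted p = 0.0181). That call was lost with library totals (0.58 ± 0.44, adjusted p = 0.261), in DESeq2 (0.126), with no filter (0.0520), without ectoderm repeat 1 (0.158) and without endoderm repeat 2 (0.199). The changes in endoderm and mesoderm against hPSC did not pass (adjusted p = 0.901 and 0.120).

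The share of ACVR1B reads assigned to transcripts with a whole coding region ran from 14.3% in mesoderm to 87.5% in endoderm. The 2 transcripts that hold a whole reference coding region, ENST00000257963.9 and ENST00000541224.5, took 8 of 13 and 7 of 13 reads in the hPSC repeats, 5 of 13 and 6 of 16 in ectoderm, 10 of 10 and 11 of 14 in endoderm, and 0 of 5 and 2 of 9 in mesoderm. Over both repeats the share was 57.7% in hPSC (exact 95% interval 36.9 to 76.6), 37.9% in ectoderm (20.7 to 57.7), 87.5% in endoderm (67.6 to 97.3) and 14.3% in mesoderm (1.78 to 42.8). The endoderm share lay above those of ectoderm and mesoderm beyond the counting intervals. The other 4 transcripts run into introns or lie within the first intron, end before the fourth exon and are from 3538 to 8833 nt long, against 4542 and 4665 nt for the coding ones. These shares were computed after the counts were seen and have no test over samples, since no ACVR1B transcript had enough reads for one. A same-strand transcript listed under RNU6-574P shares 1306 bases with ACVR1B exons and had from 0 to 5 reads in a library.

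LEFTY1 and LEFTY2 encode secreted inhibitors that bind NODAL and its coreceptor. They lie 47452 bases apart on the minus strand of chromosome 1, at chr1:225886279-225889146 and chr1:225936599-225941220, and their coding sequences are near copies. In the GENCODE 29 transcripts, 31 of 1098 coding positions differ (97.2% identity), and the longest identical stretch is 300 bases. How the authors assigned reads of such copies is not given in the sources used here.

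Both LEFTY genes were read almost only in endoderm. LEFTY1 had 0 and 1 reads in the hPSC repeats, 1198 and 1034 in the endoderm repeats, 2 and 0 in those of ectoderm and 0 and 0 in those of mesoderm. The endoderm level was 1905 ± 199 CPM, which is 2060 times the hPSC level, with a counting interval of 369 to 81394 because hPSC held 1 read (adjusted p = 1.09e-07). LEFTY2 had 2 and 2 reads in the hPSC repeats, 383 and 470 in the endoderm repeats, 0 and 0 in those of ectoderm and 0 and 0 in those of mesoderm. It rose 197-fold in endoderm in pooled reads, to 728 ± 104 CPM (log2 fold change 7.90 ± 0.49, adjusted p = 3.00e-07). No library of another group held more than 2 reads of either gene.

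In ectoderm and mesoderm LEFTY2 fell from those 4 hPSC reads to 0, at least 2.65-fold and at least 1.28-fold (adjusted p = 0.00854 and 0.0442). The call in mesoderm was lost in 13 of 16 alternative analyses. LEFTY1 was at or under the floor of 3 counts in hPSC, ectoderm and mesoderm, so no fold is given among them.

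CER1 encodes Cerberus, a secreted antagonist that binds NODAL, BMP and WNT ligands and marks anterior endoderm. It had 974 and 1181 reads in endoderm and no read in any of the other 6 libraries. The endoderm level was 1839 ± 248 CPM, at least 663-fold higher than in hPSC, at least 1317-fold higher than in ectoderm and at least 634-fold higher than in mesoderm against a floor of 3 counts over the group (adjusted p = 2.50e-07, 2.55e-08 and 7.39e-08). CER1 also stood in the list of endoderm markers. Its transcript has 2 exons and 1231 nt and lies at chr9:14719724-14722733.

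**Figure D2:**
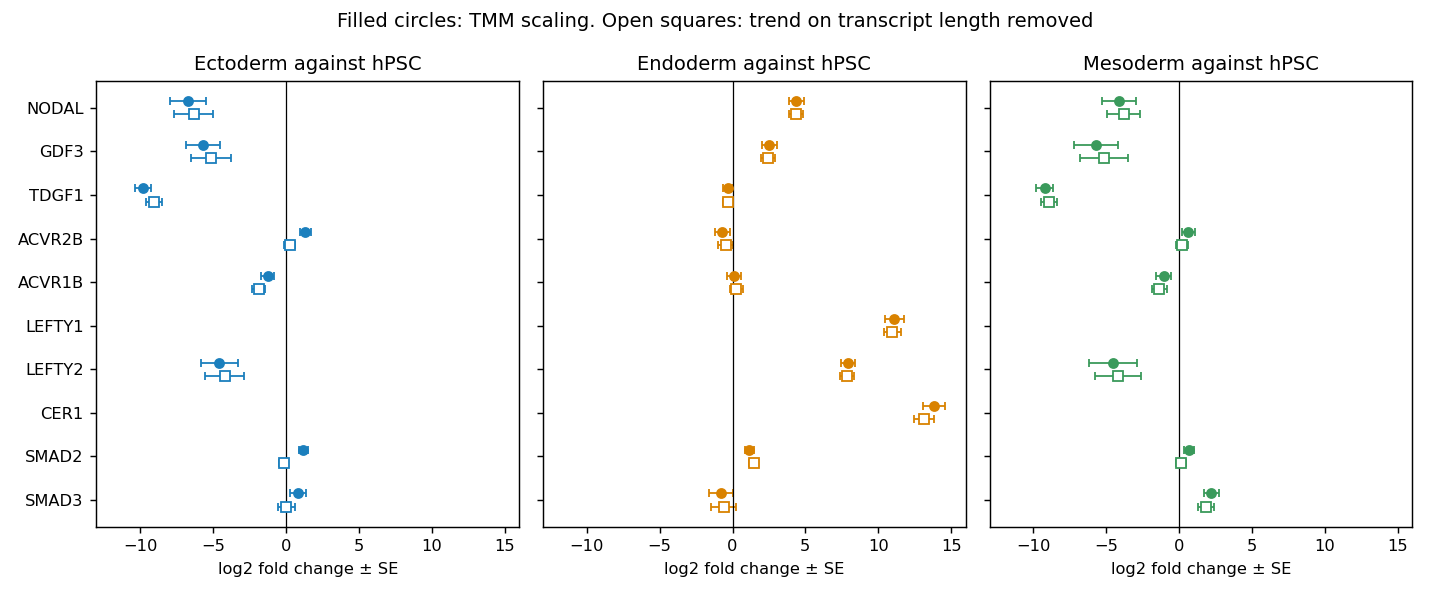
Fitted log2 fold change ± SE of each gene against hPSC, with TMM scaling (filled circles) and with the trend on transcript length removed (open squares). Genes at or under the floor in both groups are not drawn, and values against a group without reads depend on the prior count of the fit. The changes of SMAD2 and ACVR2B in ectoderm move to near 0 when the length trend is removed.

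SMAD2 was read in every library. Its levels in CPM, which use library totals, were highest in ectoderm. It had 31 and 23 reads in the hPSC repeats, 53 and 50 in the endoderm repeats, 182 and 148 in those of ectoderm and 45 and 51 in those of mesoderm. On the CPM scale the hPSC repeats stood at 59.7 and 40.9, those of endoderm at 90.5 and 85.3, those of ectoderm at 154 and 153 and those of mesoderm at 84.7 and 101, so that hPSC lay below every layer and ectoderm above the others, while endoderm and mesoderm overlapped. SMAD2 rose in endoderm (log2 fold change 1.15 ± 0.32, adjusted p = 0.0142) and in ectoderm (1.20 ± 0.30, adjusted p = 0.00463), the latter with a change of sign to -0.15 ± 0.30 (adjusted p = 0.732) once the trend on transcript length was removed. The value in endoderm was 1.44 ± 0.31 (adjusted p = 0.00276) without that trend. It was 0.81 ± 0.30 (adjusted p = 0.0626) with library totals as the only scaling, and the call was also lost when either endoderm repeat was left out (0.0571 and 0.0574). In mesoderm the change was 0.67 ± 0.32 and did not pass (adjusted p = 0.120). With TMM scaling SMAD2 did not differ detectably between endoderm and ectoderm (-0.04 ± 0.29, adjusted p = 0.905). With the length trend removed, endoderm exceeded ectoderm (1.59 ± 0.28, adjusted p = 0.000226) and mesoderm (1.32 ± 0.30, adjusted p = 0.00221).

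SMAD3, which also transduces TGF-beta signals and binds DNA directly, was highest in mesoderm. It had 7 and 5 reads in the hPSC repeats, 6 and 0 in the endoderm repeats, 32 and 25 in those of ectoderm and 37 and 26 in those of mesoderm. Both mesoderm libraries, at 69.7 and 51.6 CPM, lay above all others, and both ectoderm libraries, at 27.1 and 25.8 CPM, lay above hPSC and endoderm. SMAD3 rose in mesoderm (log2 fold change 2.21 ± 0.53, adjusted p = 0.00487), where it was 5.49 times the hPSC level in pooled reads and where the amnion and trophoblast markers were also high. It was lower in ectoderm than in mesoderm (-1.38 ± 0.41, adjusted p = 0.0161) and lower in endoderm than in mesoderm (-2.97 ± 0.62, adjusted p = 0.00122) or ectoderm (-1.59 ± 0.67, adjusted p = 0.0475). Its changes in ectoderm (0.82 ± 0.56, adjusted p = 0.235) and endoderm (-0.77 ± 0.82, adjusted p = 0.530) against hPSC did not pass. The call in mesoderm was lost without mesoderm repeat 1 (adjusted p = 0.0567). The difference between ectoderm and mesoderm was lost in DESeq2 (0.156), with library totals (0.0559), without ectoderm repeat 1 or 2 (0.137 and 0.172) and without mesoderm repeat 1 or 2 (0.216 and 0.0659), and the difference between endoderm and ectoderm was lost in 8 of 17 alternative analyses.

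SMAD2 was the only gene of the 10 with enough reads on several transcripts to test whether the groups chose different ones. Its choice of transcripts differed between endoderm and hPSC (adjusted p = 0.000496 in edgeR's diffSpliceDGE test, 4 transcripts tested), in a comparison in which 8.35% of 2634 genes were called. It did not pass in ectoderm (adjusted p = 0.990, 9.72% of genes called) or mesoderm (adjusted p = 0.730, 9.68% called). Transcript hEDT_00043544, which has no reference identifier, had 3 and 2 reads in the hPSC repeats, 27 and 19 in the endoderm repeats, 20 and 12 in those of ectoderm and 9 and 10 in those of mesoderm. It took 44.7% of SMAD2 reads in endoderm (exact 95% interval 34.9 to 54.8). It passed the filter on low counts only with the endoderm libraries, so the call of transcript choice in endoderm is a description. Its log2 change in endoderm relative to SMAD2 as a whole was 2.12. That of transcript hEDT_00043542, the reference ENST00000402690.6, was -3.11, with 5 and 4 reads in hPSC and 2 and 0 in endoderm. The F test of a quasi-likelihood fit gave adjusted p = 0.00193. The call was kept when any 1 library was left out (adjusted p from 0.00129 to 0.0232) and was lost with no filter on low counts (0.0931). It was also lost with reference transcripts alone (0.0958), an analysis that leaves out hEDT_00043544.

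These SMAD2 transcripts share every coding exon and differ outside the coding region, in their first exon among others. Within the transcripts that hold the whole coding region there were 3 first exons on chromosome 18, minus strand. The upstream exon lies at chr18:47930800-47931141, the middle one at chr18:47930361-47930657 and the downstream one at chr18:47930252-47930362, starting 484 and 779 bases after the upstream start. All 3 splice donors occur in GENCODE 29, in 4, 2 and 1 SMAD2 transcripts. Reads were counted by the assembled transcript they were assigned to, and the reads themselves were not checked for their first exon. The upstream exon took 46.2% and 45.5% of such reads in the hPSC repeats, 52.9% and 50.0% in ectoderm, 48.8% and 50.0% in mesoderm, and 16.3% and 15.2% in endoderm. The downstream exon took 23.1% and 13.6% in hPSC, 17.0% and 15.3% in ectoderm, 26.8% and 26.1% in mesoderm, and 59.2% and 52.2% in endoderm. Both endoderm libraries stood apart from all 6 others in both shares. Over both repeats the downstream share was 55.8% of 95 reads in endoderm (exact 95% interval 45.2 to 66.0) and 18.8% of 48 reads in hPSC (8.95 to 32.6). The middle exon took from 23.9% to 40.9% in all libraries, with overlapping groups. Transcript length also differed. In endoderm, hEDT_00043544 (10299 nt, downstream exon) had 27 and 19 reads and hEDT_00043541 (10601 nt, upstream exon) 6 and 7, against 3 and 2 and 7 and 6 in hPSC. The other tested transcripts are 12075 nt (upstream exon) and 29869 nt (middle exon) long. The grouping by first exon was made after the counts were seen and carries no test of its own. Intervals cover counting error only.

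**Figure D3:**
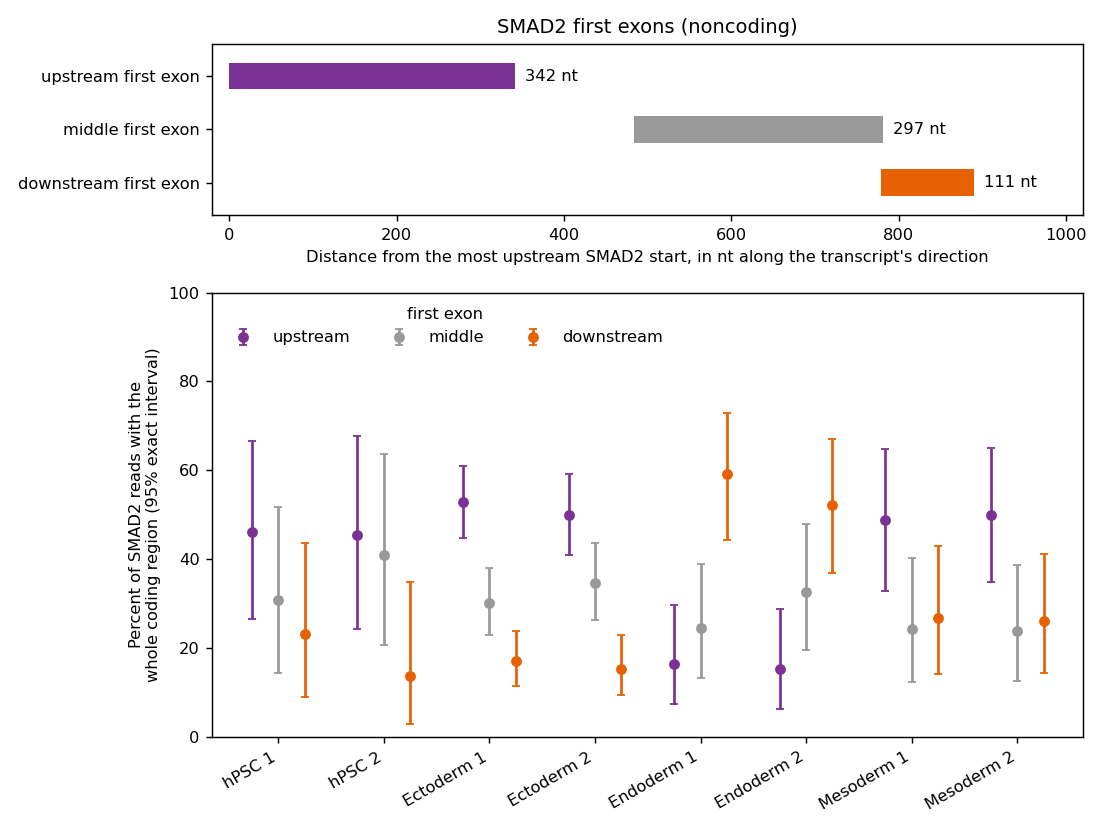
Top, the 3 first exons of SMAD2 drawn to scale as distance in nt from the most upstream start. Bottom, percent of SMAD2 reads assigned to transcripts with the whole coding region, by first exon and library, with exact 95% intervals. The downstream exon takes 59.2% and 52.2% in the endoderm libraries and at most 26.8% elsewhere.

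Read by comparison, 6 of the 10 genes rose and none fell in endoderm against hPSC, where 27.2% of 10843 tested genes were called, 13.4% as higher and 13.8% as lower. In ectoderm 2 rose and 5 fell, where 48.7% of all genes were called, 23.8% as higher and 24.8% as lower. In mesoderm 1 rose and 4 fell, where 35.1% were called, 16.9% as higher and 18.2% as lower. Between layers, endoderm exceeded ectoderm for 7 genes and lay below it for ACVR2B and SMAD3, where 63% of all genes were called (29.9% higher, 33.1% lower). Endoderm exceeded mesoderm for 6 genes and lay below it for ACVR2B and SMAD3, where 47.1% were called (23.2% higher, 23.9% lower). Ectoderm differed from mesoderm in SMAD3 alone, which was lower, where 35.5% were called (18.1% higher, 17.3% lower). NODAL, GDF3, LEFTY1, LEFTY2 and CER1 passed the filter on low counts only through the endoderm libraries, so their share of these counts is a description. All comparisons with hPSC share the same 2 hPSC libraries.

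Part of these counts depends on transcript length and on scaling. With the trend on transcript length removed, endoderm exceeded ectoderm for 8 of the 10 genes and lay below it for 0. It exceeded mesoderm for 8 and lay below it for 1. Against hPSC, 0 rose and 5 fell in ectoderm. SMAD3 was then at -0.65 ± 0.71 for endoderm against ectoderm (adjusted p = 0.451). With library totals in place of TMM, the median log2 change of all genes moved from -0.01 to 0.39 in ectoderm, from -0.13 to -0.46 in endoderm and from 0.01 to 0.24 in mesoderm. The share of calls that were higher than hPSC went from 49.0% to 66.5% in ectoderm, from 49.3% to 31.7% in endoderm and from 48.0% to 59.1% in mesoderm. Between layers it went from 47.5% to 28.3% for endoderm against ectoderm, from 49.3% to 28.1% for endoderm against mesoderm and from 51.1% to 62.3% for ectoderm against mesoderm.

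The other genes of the pathway were taken from lists by role, and their changes were computed with TMM scaling alone, without removal of the length trend. Of 3 tested ligands, 2 rose in endoderm (13.4% of all genes were higher), 1 in ectoderm (23.8%) and 1 in mesoderm (16.9%). TGFB1 and GDF11 passed the filter on low counts only with the endoderm libraries, and TGFB2 only with those of ectoderm and mesoderm. The ligand counts are therefore a description. TGFB1 had 6 and 0 reads in hPSC and 22 and 12 in endoderm (log2 fold change 2.69 ± 0.69, adjusted p = 0.00943), and GDF11 rose there as well (2.32, adjusted p = 0.0102). TGFB2 had 1 and 0 reads in hPSC and rose in ectoderm, with 15 and 18 reads (adjusted p = 0.00882), and in mesoderm, with 9 and 12 (adjusted p = 0.00491). INHBA, the subunit gene of activin A, had no read outside mesoderm, where it had 2 and 1. Of 5 tested receptors, none passed the test in endoderm, TGFBR1 rose in ectoderm (23.8% of all genes were higher), and 3 rose in mesoderm (16.9% higher). TGFBR1, the TGF-beta type I receptor, had 12 and 3 reads in the hPSC repeats, 3 and 5 in the endoderm repeats, 265 and 275 in those of ectoderm and 37 and 33 in those of mesoderm (3.77, adjusted p = 1.00e-05 in ectoderm and 2.05, adjusted p = 0.00317 in mesoderm). ACVR2A and BMPR2, type II receptors, rose in mesoderm by 1.85 and 2.05 (adjusted p = 0.0142 and 0.0144), and ACVR2A passed the filter only with the mesoderm libraries. The receptors' median log2 change was -0.19 in endoderm, 0.75 in ectoderm and 1.85 in mesoderm, against -0.13, -0.01 and 0.01 for all genes.

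Of 7 tested extracellular inhibitors and proteases other than LEFTY and CER1, 6 rose and none fell in mesoderm, where 16.9% of all genes were higher. BAMBI, FST and the BMP antagonists NOG and CHRD are among these 6. They passed the filter on low counts only with the mesoderm libraries, so the count is a description. The amnion and trophoblast markers, with a summed level of 6874 and 7566 CPM, were high in the same 2 libraries, and their part in this was not tested. In endoderm 2 rose and none fell (13.4% of all genes were higher), and in ectoderm 1 rose and 1 fell (23.8% higher, 24.8% lower). BAMBI, a pseudoreceptor that blocks TGF-beta and activin receptors, had 17 and 2 reads in the hPSC repeats, 9 and 3 in the endoderm repeats, 2 and 2 in those of ectoderm and 407 and 360 in those of mesoderm (5.18, adjusted p = 2.12e-06 in mesoderm, and -3.49, adjusted p = 0.00254 in ectoderm). Follistatin (FST), which traps activin, had 3 and 0 reads in hPSC and 48 and 44 in mesoderm (4.69, adjusted p = 5.14e-05), and it also rose in endoderm (3.02, adjusted p = 0.0111). FURIN, a protease that matures NODAL, rose in endoderm (2.55, adjusted p = 9.76e-05) and mesoderm (1.76, adjusted p = 0.00174). FSTL1, a follistatin-related protein, rose in mesoderm (2.19, adjusted p = 0.000131) and ectoderm (1.19, adjusted p = 0.00704).

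FOXH1, the nuclear partner of SMAD2, was low in the same layers as TDGF1. It had 55 and 47 reads in the hPSC repeats, 86 and 103 in the endoderm repeats, 5 and 5 in those of ectoderm and 0 and 1 in those of mesoderm. It fell in ectoderm (-4.70, adjusted p = 9.53e-07) and mesoderm (-6.58, adjusted p = 1.68e-06) and rose in endoderm (1.11, adjusted p = 0.0137). Of 14 tested transducers and nuclear partners, 3 rose and 1 fell in endoderm (13.4% and 13.8% of all genes), 5 rose and 2 fell in ectoderm (23.8% and 24.8%), and 4 rose and 2 fell in mesoderm (16.9% and 18.2%). The share called in ectoderm was close to the 48.7% of all genes. Of the 3 that rose in endoderm, 1 passed the filter on low counts only with the endoderm libraries. Of the 4 that rose in mesoderm, 1 passed it only with the mesoderm libraries. Both counts are therefore in part a description. The corepressor gene TGIF1 fell in ectoderm (-2.38, adjusted p = 5.57e-05) and mesoderm (-1.12, adjusted p = 0.0142). SMAD5, a transducer of BMP signals, rose in ectoderm (2.51, adjusted p = 9.32e-05) and mesoderm (1.59, adjusted p = 0.00641). SMURF2, a ubiquitin ligase of SMADs and receptors, rose in mesoderm (2.57, adjusted p = 0.000397) and ectoderm (1.19, adjusted p = 0.0466).

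The textbook targets of the pathway in mesendoderm were mostly higher in endoderm. Of 10 tested, 9 rose and none fell in endoderm, where 13.4% of all genes were higher. Those 9 genes had few or no reads outside endoderm and passed the filter through it, so the count is a description, and EOMES, SOX17, GATA6 and CXCR4 among them also stood in the list of endoderm markers. In ectoderm none rose and 1 fell (24.8% of all genes were lower), and in mesoderm 1 rose and 1 fell (16.9% higher, 18.2% lower). FGF17, a secreted growth factor, had 792 and 776 reads in endoderm and at most 1 in any other library (adjusted p = 1.09e-07). EOMES, a T-box factor of early endoderm, had 70 and 56 reads there and none elsewhere (adjusted p = 5.79e-06). NANOG, the pluripotency factor, was the exception, with 79 and 129 reads in hPSC and 92 and 65 in endoderm (-0.22, adjusted p = 0.721), and it fell in ectoderm (-7.36, adjusted p = 4.46e-07) and mesoderm (-7.64, adjusted p = 1.91e-06).

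**Figure D4:**
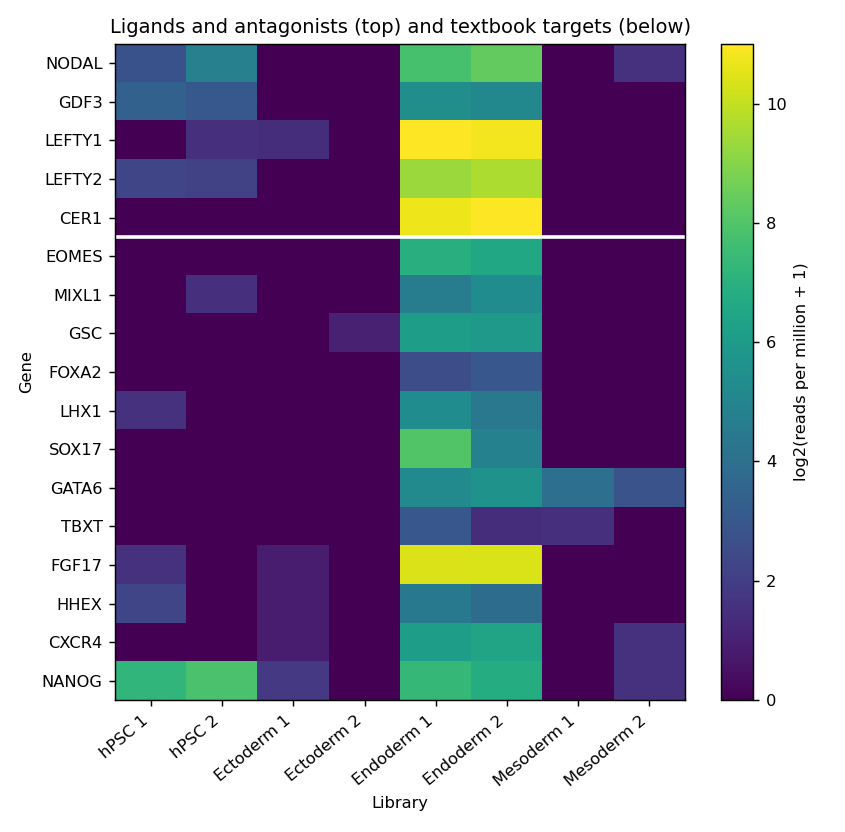
Color gives log2(CPM + 1) in each library (columns) for the ligands and antagonists (top 5 rows) and a selection of the textbook targets (rows below the white line). Both endoderm libraries hold reads of every gene shown, and in ectoderm and mesoderm most are at or near 0.

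By likeness of log2 CPM over the 8 libraries, the tested genes most like each member, up to 3, were found as a description, and the libraries form only 4 groups. For LEFTY1 they were GATA4, NR0B1 and EOMES (Pearson r = 0.998, 0.998 and 0.997), and for CER1 they were SLC5A9, NR0B1 and DKK4 (each r above 0.999), genes with no read outside endoderm. For TDGF1 they included NANOG and DANCR (0.997 and 0.995). For NODAL they were ACTR1A, HYAL3 and MT-ND1 (0.992, 0.992 and 0.991), and for GDF3 they were CALB1, LINC00665 and PSMA6 (0.995, 0.993 and 0.991). Pearson's r does not depend on the size of a change, so ACTR1A, with 102 to 243 reads in all libraries, can rank beside a gene that is nearly absent from 2 groups. For LEFTY2 they were VCP, KEL and PVR (0.997, 0.997 and 0.996). For ACVR2B they were NUP50, DTWD1 and SOCS5 (0.990, 0.989 and 0.989), for ACVR1B RPS7, GP6-AS1 and SUPT4H1 (0.982, 0.975 and 0.974), for SMAD2 GFPT1, PELI1 and GPHN (0.980, 0.966 and 0.966), and for SMAD3 ZNF362, EFNB3 and FEZ2 (0.972, 0.970 and 0.967).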

How the data were processed

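Long-read counts of 8 libraries (4 groups of 2) were analysed. The authors deposited raw counts per assembled transcript. In the deposited table the endoderm columns were read as estimated counts, whose values are whole, so nothing was rounded. That reading came from the column names alone, and these columns hold raw counts like those of the other groups. Transcripts carry StringTie and gffcompare names, per the file headers. The submitters' processing notes name minimap2, StringTie and GRCh38. Versions, the counting step and its use of strand are not given in the sources used here. Of 26900 multi-exon transcripts matched to a GENCODE 29 transcript on GRCh38, 96.5% have the same introns, and coordinates are given on that build.

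Gene counts are sums over named transcripts. They were tested with edgeR 4.0.16 (R 4.3.3), with TMM scaling, filterByExpr at a minimum count of 10, 1 quasi-likelihood fit of all 8 libraries, and two-sided tests with Benjamini-Hochberg adjustment at 0.05. All 10 genes passed the filter. The common biological coefficient of variation was 0.212. Levels in CPM use library totals. Transcript choice was tested with diffSpliceDGE, whose likelihood ratio test was used where an F test had been planned, and the F test was added as an alternative. Shares have exact Clopper-Pearson intervals (scipy 1.17.1, confidence level 95%), and intervals and floors cover counting error only. The scripts were tested on simulated data.

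The labels do not say whether repeats of the same number belong together. Correlations of deviations between groups ran from -0.03 to 0.15, which cannot settle it. The genes and lists were chosen with earlier results of these data known. The text names the 10 genes, per pathway list at most 4 genes called in any layer by smallest adjusted p, transcripts with at least 10% of a gene's reads in a group, and the 3 genes of highest likeness. A few results that this rule would name are not reported here. The groupings by coding region and first exon and the motifs were chosen after values were seen, as were INHBA, SOX2, TBXT, MIXL1 and HAND1. Alternatives were DESeq2 1.42.0, RLE size factors, no filter, a repeat term, pairwise fits, transcripts listed by position, known transcripts only, removal of a length trend and each library left out. Library totals, opposite-strand reads counted for NODAL and the F test were added after the data were seen.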

Additional observations from a re-analysis of the deposited data

How the results depend on the processing

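Against hPSC, 119 of 133 values of single genes in ectoderm, 159 of 169 in endoderm and 112 of 133 in mesoderm kept their direction and their side of the threshold over all alternatives. DESeq2 called 3354 genes in ectoderm, 1831 in endoderm, 2315 in mesoderm and 2010 between ectoderm and mesoderm, against 5280, 2952, 3805 and 3848 in edgeR. Of the 10 genes, ectoderm against mesoderm gave 0 called in DESeq2, 0 with library totals and 2 in a fit of the 2 groups alone. Such fits against hPSC called 3 of the 10 in ectoderm and 2 in mesoderm, where 2470 genes in all were called, but NODAL, GDF3, LEFTY1, LEFTY2 and CER1 did not pass the filter without the endoderm libraries and were not tested there. The change of transcript choice in endoderm was called for 0 of the 10 genes with no low-count filter and for 0 with known transcripts only. Over all genes, transcript choice was called for 256 in ectoderm, 220 in endoderm and 255 in mesoderm, against 149, 133 and 185 with the F test, 469, 319 and 312 with no filter, and 164, 122 and 163 with known transcripts only. Leaving out each library gave from 56 to 370, from 94 to 305 and from 111 to 366. The causes were not tested, beyond the fewer samples or transcripts of an alternative.

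Signs turned for 3 genes. With library totals ACVR1B was at 0.0049 for ectoderm against mesoderm and -0.23 for endoderm against hPSC, and SMAD2 was at -0.080 for endoderm against mesoderm. ACVR1B in endoderm was at -0.019 in the fit of 2 groups. With the length trend removed SMAD2 was at -0.15 in ectoderm, 1.59 for endoderm against ectoderm and -0.27 for ectoderm against mesoderm.

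Leaving out each library gave from 6 to 7 of the 10 genes called in ectoderm (3299 to 5932 of all genes), 4 to 6 in endoderm (1458 to 4074) and 1 to 4 in mesoderm (2020 to 5084). It gave 7 to 9 for endoderm against ectoderm (5333 to 8207), 7 to 8 for endoderm against mesoderm (3388 to 6481) and 0 to 3 for ectoderm against mesoderm (1784 to 5637). A library left alone in its group is assumed to vary like the others. ACVR1B ranged from -0.11 to 0.44 in endoderm against hPSC and from -0.51 to 0.39 in ectoderm against mesoderm, and SMAD3 from -6.10 to 0.26 in endoderm against hPSC, the lowest value being that without endoderm repeat 1. The lowest mesoderm count, 1, was that without mesoderm repeat 1.

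With the repeat number as a block, 1 call against hPSC changed, that of LEFTY2 in mesoderm (adjusted p = 0.0527). In that fit 7, 6 and 4 of the 10 genes were called in ectoderm, endoderm and mesoderm. Between 0 and 3 counts a library cannot order the groups for LEFTY1 or CER1 outside endoderm.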
